A study of Mus musculus with 58 samples.

Results

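Of the 20177 gene names in the count files, 256 were written as exactly 2 separate 3′ UTR rows on the same chromosome and strand, each row with at least 100 reads summed over the Quant-seq libraries. These 256 genes are described here. The rule used those summed reads and nothing that compares groups, though it was set with earlier results of these data known. The files held 46420 rows in all, with 13865 names in 1 row, 2392 in exactly 2 rows and 3920 in 3 or more. None of the 2392 pairs overlapped or lay on several chromosomes or strands, so the read minimum alone reduced them to 256. Just inside it stood Utp18, Mpp3 and Rnf10, whose lower row had 100 reads, and just outside it Hras, Ssbp1 and Cxadr, whose lower row had 99.

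The cells were E14 mouse embryonic stem (mES) cells of the 129/Ola background, in which DPY30 carried an auxin-inducible degron (DPY30mAID) or RBBP5 an FKBP degron (RBBP5FKBP). DPY30 and RBBP5 are core subunits of the SET1/COMPASS complexes that trimethylate histone H3 lysine 4, and the study asked what rapid loss of that mark does to transcription. For Quant-seq, which sequences the 3′ ends of polyadenylated RNA, DPY30mAID cells were kept in 1 µM all-trans retinoic acid (RA) without LIF for 8 h or for 1, 2, 4 or 6 days with DMSO or auxin, and 1 further DMSO group was taken at 0 h. For SLAM-seq, RNA was labelled with 100 µM 4-thiouridine for 60 min before isolation, and DPY30mAID and RBBP5FKBP cells were compared here between 0 h and 24 h of degrader treatment, with their 2 h and 8 h groups in the same fits. Every group of both assays, controls included, carried the degron on the endogenous protein, so no library came from unmodified cells. Each Quant-seq group had 2 libraries, except that both DMSO day 6 files held identical values and were counted as 1, which left 21 libraries. Each SLAM-seq group used here had 3 libraries. No auxin group was taken at 0 h. The SLAM-seq libraries are described in the study as biological replicates. For Quant-seq the sources used here do not say whether the libraries of a group came from separate cultures, so those p-values measure the spread between these libraries, which may be technical.

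The 3′ end of a messenger RNA is made when the transcript is cut downstream of a polyadenylation signal, usually AATAAA or its variant ATTAAA in the DNA, and a poly(A) tail is added. A gene with several such sites can end its transcript at a proximal or a distal one, either within 1 last exon, which changes the length of the 3′ UTR, or in alternative last exons, which also changes the coded protein. Stem cells are known for frequent use of proximal sites, and differentiation for longer 3′ UTRs in many genes.

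The proximal and the distal row of a gene are named here by their order along transcription, and the distal share is the percentage of the reads of both rows that fell in the distal one. In GENCODE vM21 on GRCm38, which has the coordinates of the mm10 build used by the files, 143 of the 256 pairs had no annotated transcript that held both rows, as alternative last exons do. In 87 pairs both rows lay in 1 transcript across an intron, and in 26 they lay in 1 exon. The distance between the 3′ ends of the rows had a median of 5692.5 bases and ran from 192 to 232549 bases. Proximal rows had a median length of 345.5 bases and distal rows of 819.5 bases, and 41 proximal rows were 50 bases or shorter. Reads that map to more than 1 place made up over 10% of either row in 86 genes, and those genes are named as multimapped below, since their reads could come from near-identical copies.

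The last 50 bases of each row were searched on the row's strand for AATAAA and, where that was missing, for ATTAAA, so that no window counted for both. Of 245 distal rows with an annotated window, 199 (81.2%) held one of them, 153 with AATAAA and 46 with ATTAAA. Of 250 proximal rows, 129 (51.6%) did. Over the windows of all 45647 rows of the files the share was 37.4%, and over the 12062 rows with at least 100 reads it was 73.5%. The proximal rows differed by class, with a signal in 105 of 139 windows where no transcript held both rows, in 19 of 85 across an intron and in 5 of 26 within 1 exon. Below are the signals of genes called in the tests of distal share over RA time or of newly made RNA, which are described further below. Several of those calls were lost when a library was left out. The bases are from GENCODE transcripts on GRCm38, 5′ to 3′ on the gene's strand with the signal in capitals. They show that both rows of a gene can end in a signal of the same letters.
Zmynd8 distal, chr2:165784156-165784185, minus strand: aaatttgtATTAAActtaaatatctttttt
Zmym3 proximal, chrX:101414931-101414960, minus strand: attttaaaAATAAAagtgaagggacaaacc
Zmym3 distal, chrX:101404384-101404413, minus strand: gaattgtttcaAATAAAgagttaaaattgt
Elac2 proximal, chr11:65001571-65001600, plus strand: actcagactcAATAAAgctcaagtttggaa
Gskip proximal, chr12:105699122-105699151, plus strand: aattttggttAATAAAttttttatcaacac
Gskip distal, chr12:105702991-105703020, plus strand: agagtttaAATAAAattatttacttgattt
Fbxo3 proximal, chr2:104057474-104057503, plus strand: AATAAAccctttacatgttcaaccctctca
Fbxo3 distal, chr2:104063209-104063238, plus strand: agcccctcAATAAAcggagtttaaccattg
Rbbp6 proximal, chr7:122984363-122984392, plus strand: atttaaaattaaAATAAAgtgttaaaactg
Rprd2 proximal, chr3:95772255-95772284, minus strand: cagaattactATTAAAcaatctttcattga
Rprd2 distal, chr3:95760344-95760373, minus strand: tatcatttAATAAAataactagttctaaag

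The Quant-seq libraries held 1264241 to 2543632 counted reads, and the 256 genes took 4.20 to 5.73% of them. The SLAM-seq libraries of DPY30mAID held 2013350 to 2806821 reads and those of RBBP5FKBP 1721185 to 2852331. Marker genes differed over RA time in the DMSO libraries. All 6 ES cell markers (Pou5f1, Nanog, Sox2, Esrrb, Zfp42 and Klf4) were lower in both day 4 libraries than in both 0 h libraries, with a summed level of 4657 to 4943 normalised CPM (counts scaled to a common library total) at 0 h and 1824 to 1841 at day 4. All 5 primitive endoderm markers were higher, with sums of 9.72 to 9.78 and 1458 to 1472. The 5 RA response genes had sums of 21.7 to 24.8 at 0 h and 667 to 679 at day 4, with Cyp26a1 at 0 in both 0 h libraries. Sums of the 5 trophectoderm markers were 39.4 to 43.4 and 468 to 487, most of it Krt8, with 3 of the 5 higher in both day 4 libraries, Cdx2 lower and Elf5 at 0 in both 0 h libraries. Cdx2 rested on few reads, at 0.49 and 1.28 normalised CPM at 0 h and 0.44 and 0.46 at day 4. Sums of the 5 neural markers were 119 to 128 and 83.2 to 91.5, most of it Tubb3, which was lower, while 3 of the 5 (Pax6, Nes and Map2) were higher in both day 4 libraries. Pax6 also rested on few reads, at 0.49 and 0.85 normalised CPM at 0 h and 0.88 and 3.19 at day 4. In the auxin libraries of day 4 the sums were 1232 to 1285 for ES cell, 523 to 526 for primitive endoderm and 917 to 972 for RA response genes. They were 380 to 486 for trophectoderm and 70.1 to 97.6 for neural markers. The part of these shifts in cell state in the results below was not tested, and fewer cells of a type cannot be told apart from less RNA per cell.

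In undifferentiated cells most of the 256 genes had most of their reads in the distal row. The proximal row held an annotated transcript end in 142 of the 143 pairs with no shared transcript, but in 38 of 87 across an intron and 14 of 26 within 1 exon, so that in those classes the share need not be one between known ends. At 0 h in DMSO, 223 genes had at least 20 reads in each library, with a median distal share of 85.8%, quartiles of 61.1 and 92.6% and a range of 0.516 to 99.8%. The share was over 90% in 84 genes, between 10 and 90% in 131 and under 10% in 8. The 2 libraries of a gene differed by a median of 2.64 percentage points. By class, the median share was 81.7% where no transcript held both rows (118 genes, quartiles 46.2 and 91.5%), 87.7% across an intron (81 genes, quartiles 73.3 and 94.1%) and 91.0% within 1 exon (24 genes, quartiles 69.2 and 96.1%). Each class reached from low to nearly full distal use.

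**Figure D1:**
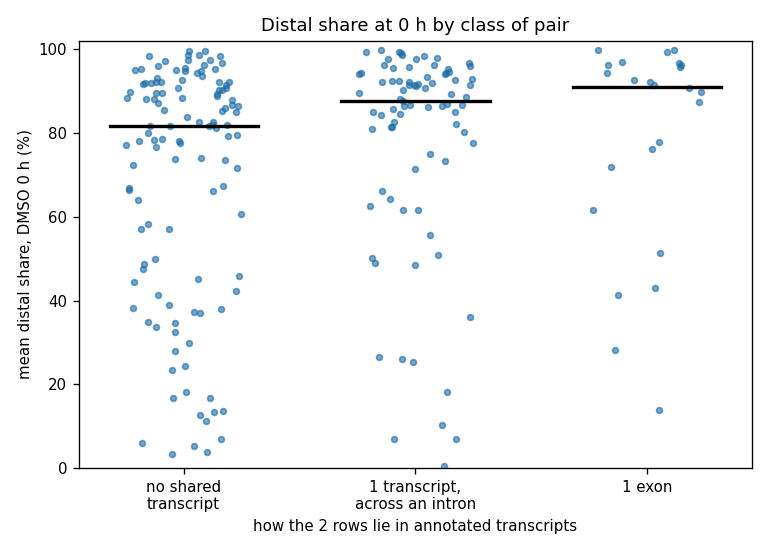
Distal share at 0 h in DMSO (percent of the reads of both rows, mean of 2 Quant-seq libraries) for the 223 genes with at least 20 reads in each library, grouped by how the rows lie in annotated transcripts. Each point is a gene, black lines are medians, and points are spread sideways at random; the medians lie at 81.7, 87.7 and 91.0%.

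The 3 genes with the most reads among those with at most 10% multimapped reads showed how different the balance could be. Rps3, a protein of the small ribosomal subunit on chr7, had distal shares of 99.5 and 98.9% at 0 h, beside a proximal row of only 3 bases. Hint1, a nucleotide hydrolase on chr11 whose rows lie within 1 exon, had 79.9 and 75.7%. Sae1, a subunit of the SUMO-activating enzyme on chr7, had 0.535 and 0.496%, with almost all of its reads in the proximal row, and both rows lie in 1 transcript across an intron. At day 4 in DMSO the shares of Rps3 were 99.5 and 99.6% and those of Hint1 78.4 and 77.9%, with both Hint1 libraries between those of 0 h. Sae1 rose to 2.17 and 1.38% at day 2 (log2 odds ratio 1.78, SE 0.37, adjusted p = 0.00331, but 0.170 with DESeq2, 0.0674 without DMSO 0 h replicate 2 and 0.136 without day 2 replicate 1), and its day 4 libraries had 1.46 and 0.722% (adjusted p = 0.156).

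From a list of 25 genes described with alternative 3′ ends, 2 were among the 256, Cdc42 and Rbbp6. Cdc42, a small GTPase of cell polarity known for a brain-enriched last exon, had distal shares of 98.0 and 98.5% at 0 h and of 98.2 and 98.9% at day 4. The difference had a log2 odds ratio of 0.25 with a 95% interval of -0.51 to 1.00. Rbbp6 is described further below.

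The comparison over RA time asked whether the distal share changes as mES cells leave the undifferentiated state. Changes were tested as the odds of a distal read per gene, within each library, with edgeR's quasi-likelihood test and Benjamini-Hochberg adjustment over all 1097 genes of the files with at least 100 reads in the most distal row and 100 in the other rows, and a gene was called at an adjusted p under 0.05. At day 4 in DMSO, 23 of the 256 genes were called, 19 with a higher and 4 with a lower distal share. Over all 1097 genes, 3.83% were called higher and 0.912% lower. The median change over the 215 of the 256 with at least 20 reads in each library was 0.837 percentage points, against 0.520 over all 994 such genes. Of the 215, 32 differed by over 10 points, and no matching count over the 994 is given here. Of the 23 genes called, 14 had at most 10% multimapped reads in both rows, and 18 lay in the class with no shared transcript, 4 across an intron and 1 within 1 exon.

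**Figure D2:**
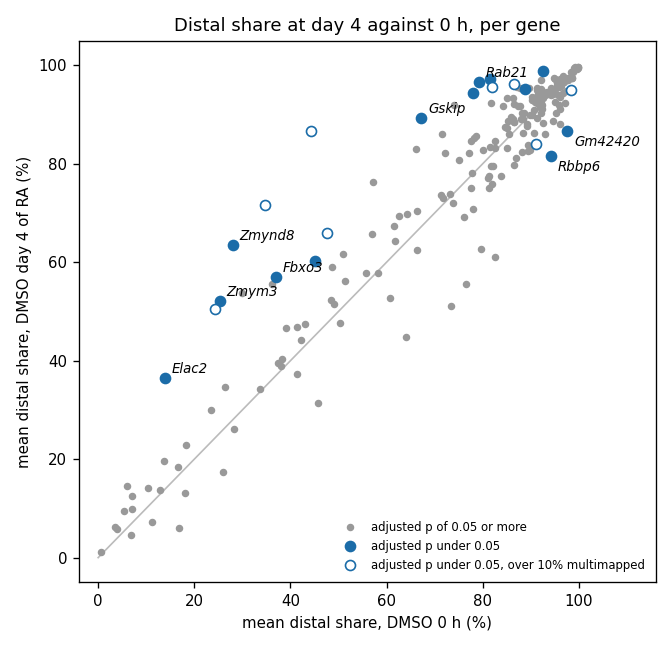
Mean distal share (percent) at day 4 of RA against 0 h, both in DMSO with 2 Quant-seq libraries each, for the 215 genes with at least 20 reads in each library; 2 of the 23 genes called, Brdt and Tnrc18, had fewer reads and are not drawn. Filled blue points were called with at most 10% multimapped reads and open blue points with more, and of the genes labelled, 6 lie above and 2 below the line of equal shares.

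Earlier in RA fewer genes were called. At 8 h, 2 genes were called, both lower (0.638% of all genes were called lower and 0 higher). They were Hook2, an adaptor of the dynein motor, which went from a mean of 82.5% to 37.7%, and Pnkd, from 47.6 to 19.1%, and in both genes about 97% of the reads of 1 row were multimapped. On day 1, 5 genes were called higher and 9 lower (1.64 and 1.73% of all genes), and on day 2, 8 were called higher and 4 lower (1.73 and 0.82%). In all, 35 genes were called at some time in RA, and Pnkd alone was called in both directions, lower at 8 h and day 1 and higher at day 4, though the day 4 call was lost without any 1 of the 4 libraries (adjusted p of 0.158 to 0.357), with the replicate block (0.0586), DESeq2 (0.0980) and diffSpliceDGE (0.0862). Of the 23 genes of day 4, 1 was also called at 8 h, 4 at day 1 and 7 at day 2. These comparisons all share the DMSO 0 h libraries, so the overlaps are not independent repeats. Matching counts over all genes tested are not given here, either for the overlaps or for the 35 genes.

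Zmynd8, shifted to the distal row, had the lowest adjusted p of the 23 genes. The gene encodes a chromatin reader with a PHD finger, a bromodomain and a MYND domain. Its rows at chr2:165827129-165828133 and chr2:165784152-165785737, on the minus strand, lie 42977 bases apart by their ends, and no transcript holds both. In DMSO the distal share was 29.4 and 26.8% at 0 h, 30.9 and 28.3% at 8 h, 35.7 and 42.3% at day 1, 60.7 and 58.2% at day 2 and 58.9 and 68.1% at day 4. The libraries of 0 h and 8 h overlapped, and every later library lay above them. The day 4 odds were higher by a log2 odds ratio of 2.16 (SE 0.27, adjusted p = 5.29e-06). The single DMSO library of day 6 had 78.9% (Wilson 95% interval 74.9 to 82.4%, for counting error only). The levels of the rows differed in opposite directions, with the proximal row at 120 and 126 CPM at 0 h and 48.7 and 37.3 at day 4, and the distal row at 49.7 and 46.0 and then 69.8 and 79.7.

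Zmym3, an X-linked zinc finger protein of histone deacetylase complexes, rose in steps. Its rows at chrX:101414930-101415318 and chrX:101404384-101405610, on the minus strand, lie across an intron. The distal share was 27.3 and 23.2% at 0 h, 32.3 and 31.6% at 8 h, 37.7 and 38.4% at day 1, 45.6 and 42.7% at day 2 and 52.8 and 51.5% at day 4, with no overlap between neighbouring times. The day 4 log2 odds ratio against 0 h was 1.69 (SE 0.27, adjusted p = 0.000219), and the day 6 library had 59.0% (Wilson 95% interval 51.4 to 66.2%). Reads of the proximal row were 70.3 and 63.7 CPM at 0 h and 41.0 and 44.3 at day 4, and those of the distal row 26.4 and 19.3 and then 46.0 and 47.1.

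Rbbp6 moved the other way. It encodes a ubiquitin ligase of the cleavage and polyadenylation machinery, whose gene is known to make a short isoform, and its rows at chr7:122978682-122984392 and chr7:123000339-123002557, on the plus strand, lie across an intron. The distal share was 93.6 and 94.6% at 0 h and 90.4 and 94.2% at 8 h, then 72.4 and 63.9% at day 1, 76.3 and 86.8% at day 2 and 79.4 and 83.7% at day 4. The fall was deepest at day 1 (log2 odds ratio -2.88, SE 0.39, adjusted p = 9.72e-06) and was -1.85 (SE 0.35, adjusted p = 0.00115) at day 4. The distal row had 178 and 186 CPM at 0 h and 49.9 and 34.2 at day 1, and the proximal row 12.1 and 10.6 and then 19.0 and 19.3. The day 6 library had 88.9% (Wilson 95% interval 85.8 to 91.3%).

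**Figure D3:**
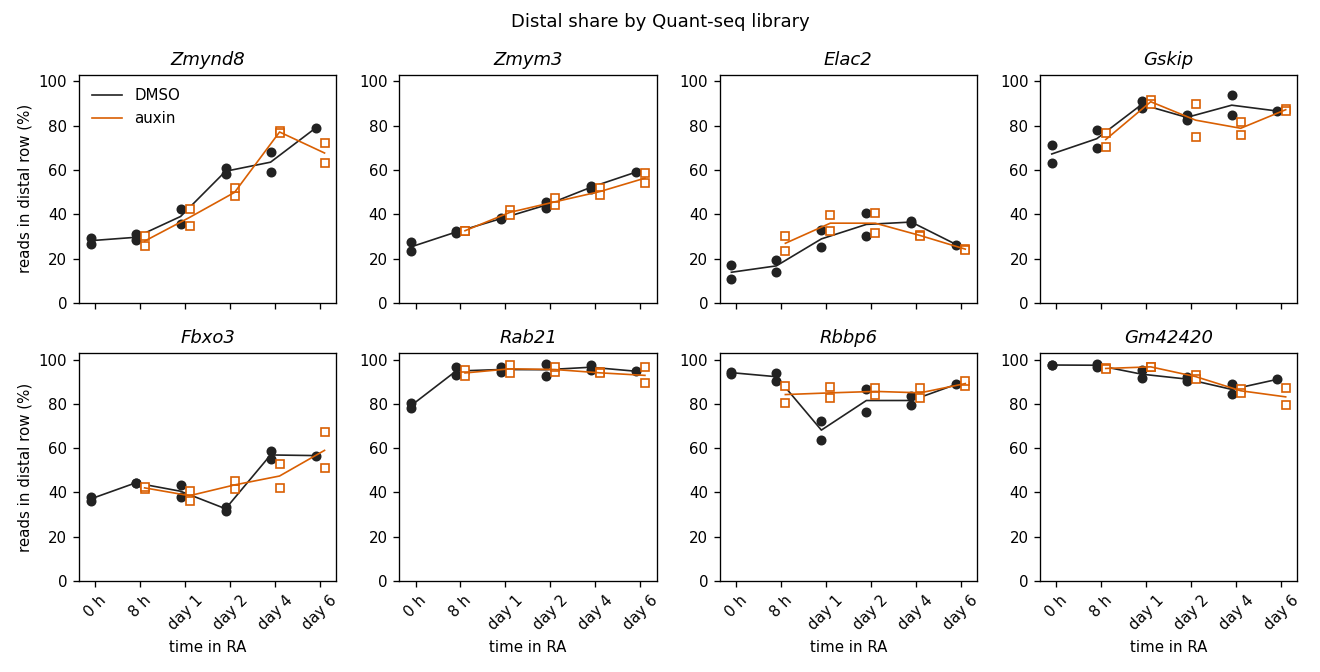
Distal share (percent) in each Quant-seq library over time in RA for the 8 genes named by rule at day 4, black circles for DMSO and open orange squares for auxin, with lines through the group means. The time axis is in steps and not to scale, auxin has no 0 h group, and DMSO day 6 is 1 library. Zmynd8 and Zmym3 climb under both treatments, and Rbbp6 dips at day 1 in DMSO to 72.4 and 63.9%.

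The other 5 genes named rested on fewer reads. Elac2, the endonuclease that trims the 3′ ends of transfer RNA precursors, had distal shares of 10.7 and 16.9% at 0 h and 36.7 and 36.2% at day 4 (log2 odds ratio 1.81, SE 0.45, adjusted p = 0.0118), with 49 to 124 reads per library. Gskip, an inhibitor of the kinase GSK3β, had 71.4 and 63.0% and then 84.6 and 93.9% (1.89, SE 0.54, adjusted p = 0.0311). Fbxo3, a substrate receptor of an SCF ubiquitin ligase, had 36.3 and 37.9% and then 55.3 and 58.6% (1.16, SE 0.35, adjusted p = 0.0437). In none of the 3 did the libraries of 0 h and day 4 overlap. Rab21, a small GTPase of early endosomes, went from 80.2 and 78.3% at 0 h to 96.8 and 92.9% by 8 h and had 95.4 and 97.8% at day 4 (2.83, SE 0.57, adjusted p = 0.00227). Gm42420, a predicted gene on chr6, went from 97.4 and 97.7% to 84.3 and 88.8% (-2.59, SE 0.54, adjusted p = 0.00356). No AATAAA or ATTAAA lay in the window of either row of Rab21 or Gm42420, and the proximal row of Gm42420 held no annotated transcript end.

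**Figure D4:**
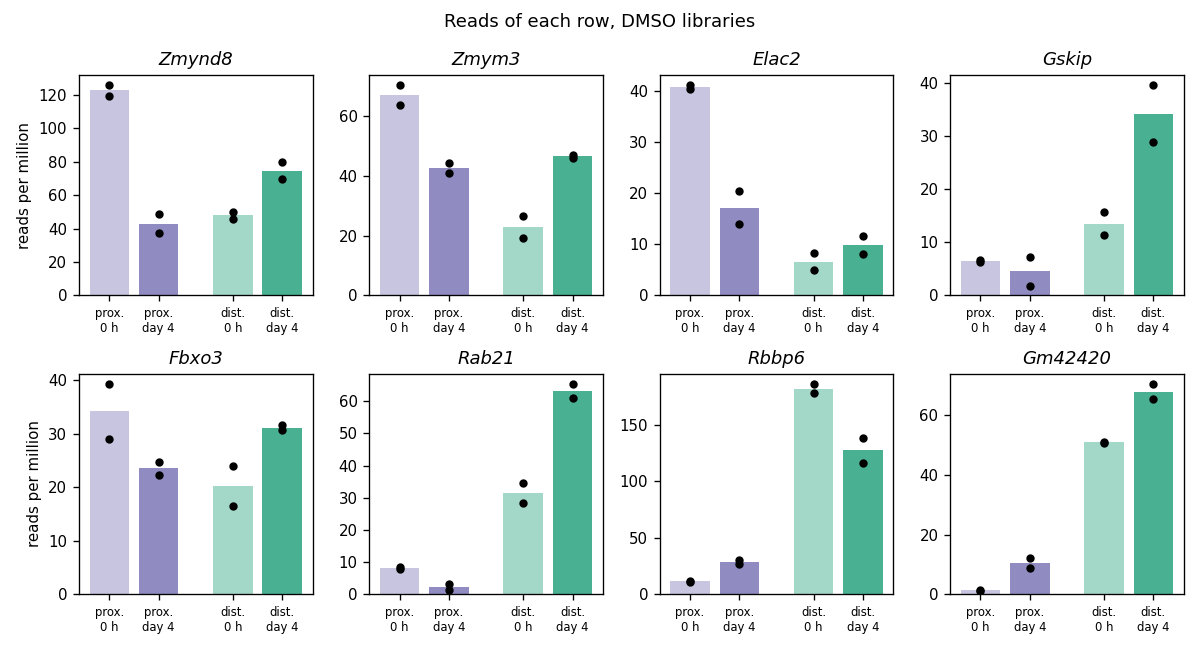
Read level in CPM in the proximal (prox., purple) and distal (dist., green) row at 0 h and day 4 in DMSO for the 8 genes named by rule. Bars are means and dots the 2 libraries; in Zmynd8 the proximal row went from 120 and 126 down to 48.7 and 37.3 and the distal row up to 69.8 and 79.7.

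The calls of Zmynd8, Zmym3 and Rbbp6 at day 4 stood in each of 12 other settings, including those that left out 1 library. Those of the other 5 depended on single libraries, and some on the method. Without DMSO 0 h replicate 1, Elac2 had an adjusted p of 0.141, Gskip of 0.0840 and Fbxo3 of 0.179. Without DMSO 0 h replicate 2, the values were 0.301 for Gskip, 0.199 for Fbxo3 and 0.0664 for Gm42420. Without DMSO day 4 replicate 1 they were 0.0750 for Elac2, 0.147 for Fbxo3 and 0.0538 for Gm42420, and without replicate 2 they were 0.122 for Elac2, 0.302 for Gskip, 0.291 for Fbxo3 and 0.0521 for Rab21. Of the 23 calls, 8, 7, 9 and 5 were kept without these 4 libraries in that order, and with newly called genes the counts were 9, 7, 10 and 6. Fbxo3 also missed the threshold with the replicate block (adjusted p = 0.0503), DESeq2 (0.0826) and diffSpliceDGE (0.0790), and Gskip with DESeq2 (0.105) and diffSpliceDGE (0.0671).

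The other 15 genes called at day 4 were named after their values were seen. Among those with at most 10% multimapped reads, Nfs1, a cysteine desulfurase of iron-sulfur cluster assembly, went from a mean of 81.6 to 97.2%, Fam193a from 78.0 to 94.3%, Dtymk, the thymidylate kinase, from 45.2 to 60.2%, Jam2, a junctional adhesion molecule, from 88.9 to 95.3%, and Copg1, a coatomer subunit of Golgi vesicles, from 92.6 to 98.9%. Leaving out 1 library at a time, Fam193a, Dtymk and Jam2 were called in 0 of 4 cases and Nfs1 and Copg1 in 1 of 4. Brdt, a testis bromodomain protein, was called on as few as 3 reads per library. Its call was lost with DESeq2 (adjusted p = 0.0826) and in the edgeR fit with at least 10 reads per side (0.0739). The remaining 9 were multimapped, among them Arhgap39, Cmtm7, Ddx27, Pnkd, Qk, Tnrc18, Zfp787 and 1500011B03Rik. Zfp787 went from a mean of 44.3 to 86.6%, and Qk, an RNA-binding regulator of splicing, from 91.2 to 84.1%, the first called in 4 of 4 such cases and the second in 0.

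The 0 h state can also be read from the SLAM-seq libraries of DPY30mAID cells without auxin, which were made from labelled and alkylated RNA. Over 208 genes with at least 20 reads in each library of both assays, the distal share differed by a median of 5.997 percentage points, within 10 points in 137 genes (Pearson correlation across genes 0.895, a description since genes are not replicates). For Zmynd8 the 3 SLAM-seq libraries had 43.0, 29.4 and 25.5%, for Zmym3 34.8, 23.2 and 32.9% and for Rbbp6 92.4, 94.8 and 95.1%, so that they lay nearer to Quant-seq at 0 h than at day 4. For Rab21 they had 98.4, 100 and 96.2% and for Elac2 31.1, 45.5 and 34.2%, nearer to Quant-seq at day 4. Of the 19 genes called at day 4 with at least 20 reads in each of these SLAM-seq libraries, whatever their Quant-seq reads, the SLAM-seq mean was nearer to Quant-seq 0 h in 12 and nearer to day 4 in 7. The 8 h libraries were also taken as the reference in place of 0 h, a choice made after the data were seen. With that reference, 27 genes were called at day 4, 23 higher and 4 lower. The matching share of all genes tested is not given here. Rab21 (log2 odds ratio 0.70, adjusted p = 0.793), Fbxo3 (adjusted p = 0.270) and Gskip (adjusted p = 0.157) were not among the 27.

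The comparison of auxin with DMSO asked whether loss of DPY30 alters the distal share during RA treatment. No gene of the 256 was called at 8 h, day 1 or day 2, and 0% of all 1097 genes were. At an unadjusted p under 0.05, 11, 11 and 17 of the 256 passed at those times, where 3.28, 4.83 and 5.83% of all genes did, and DESeq2 and edgeR's diffSpliceDGE called 0 each. At day 4, 1 gene was called, with 0.273% of all genes called, and leaving out DMSO day 4 replicate 2 left 0. At an unadjusted p, 34 of the 256 passed, 9 higher and 25 lower, and 10.1% of all genes did. The median change was -1.01 percentage points over 230 of the 256 genes and -0.901 over all 1028 genes with enough reads. The 95% interval of a gene's log2 odds ratio had a median width of 1.92 at day 4, so that changes smaller than about 0.958 on that scale were within the error of a typical gene.

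The genes named at day 4 are given under auxin beside DMSO, since both comparisons share the DMSO day 4 libraries. Zmynd8 had 77.4 and 76.9% in auxin against 58.9 and 68.1% in DMSO, and the libraries did not overlap (log2 odds ratio 0.96, SE 0.29, adjusted p = 0.133). Zmym3 had 51.7 and 48.8% against 52.8 and 51.5% (-0.11, 95% interval -0.64 to 0.42). Rbbp6 had 82.7 and 87.4% against 79.4 and 83.7%, which overlapped (0.37, 95% interval -0.28 to 1.01). At day 1, where Rbbp6 was lowest in DMSO, its auxin libraries had 87.5 and 82.5% against 72.4 and 63.9% without overlap (1.35, SE 0.43, adjusted p = 0.575). Elac2 had 30.8 and 30.0% against 36.7 and 36.2%, Gskip 81.7 and 76.0% against 84.6 and 93.9%, and Fbxo3 41.9 and 52.9% against 55.3 and 58.6%, none of them called. Rab21 had 94.3 and 93.8% against 95.4 and 97.8%, and Gm42420 had 86.8 and 85.1% against 84.3 and 88.8%.

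In SLAM-seq, where the degraders acted for 24 h without RA, 2 of the 256 genes were called in DPY30mAID (0.273% of all genes) and 0 in RBBP5FKBP (0% of all genes), where 19 of the 256 and 6.75% of all genes passed an unadjusted p under 0.05, DESeq2 called 2 and diffSpliceDGE 1. Both were named after their values were seen. Cdc23, a subunit of the anaphase-promoting complex, had distal shares of 4.72, 5.47 and 13.9% at 0 h and 0.889, 0 and 0.467% at 24 h (log2 odds ratio -4.04, SE 0.83, adjusted p = 0.0414), without overlap. D5Ertd579e had 37.5, 50.7 and 38.1% and then 86.5, 98.1 and 85.7% (3.67, SE 0.76, adjusted p = 0.0414), but 65.5% of the reads of its proximal row were multimapped. Leaving out any 1 of the 6 libraries ended both calls, with an adjusted p for Cdc23 of 0.0510 to 0.145 and for D5Ertd579e of 0.0510 to 0.141. Both also missed the threshold with the replicate number as a block (adjusted p = 0.0621). In RBBP5FKBP cells, the distal share of Cdc23 averaged 5.48 ± 2.44% before and 7.46 ± 4.73% after 24 h of degrader (SD, n = 3 each). Zmynd8 was not called (adjusted p = 0.170), its share in DPY30mAID averaging 32.6 ± 9.22% before and 51.6 ± 2.92% after auxin (SD, n = 3 each), and had 33.8 ± 2.87% and 36.7 ± 3.29% (SD, n = 3) in RBBP5FKBP. Zmym3 had 30.3 ± 6.21% at 0 h in DPY30mAID and 60.2 ± 10.3% (SD, n = 3) in RBBP5FKBP, 2 lines whose difference was not tested.

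Newly made RNA was read from the share of reads with a T>C conversion, the mark left by 4-thiouridine, in the 3 DPY30mAID libraries of SLAM-seq at 0 h. The share rises with the part of the reads that came from RNA made during the labelling and with the number of T positions a read covers. With at least 30 reads per row in every library, 55 of the 256 genes could be compared, and 201 could not. The median share was 13.6% in distal and 14.28% in proximal rows. The fitted ratio put the distal row higher in 32 genes and the proximal in 23, and all 3 libraries had the distal row higher in 17 genes and the proximal higher in 7. The median log2 ratio of distal to proximal was 0.14, against 0.55 over all 388 genes tested. By edgeR's quasi-likelihood test, 1 gene was called with a higher and 1 with a lower distal share (9.54 and 1.03% of all genes), and 12 of the 55 passed an unadjusted p under 0.05, where 32.7% of all genes did. Rows also differed in how many T positions a read covered, with medians of 20.6 in distal and 16.5 in proximal rows. Among the 17 genes the proximal row covered as few as 0 (Rps3), 1.3 (Uqcr11) and 2.0 (Tmem258) T positions per read. Among the 7 it covered no fewer than 12.3 (Atp5a1). Counted as conversions per covered T, 0 of the 55 genes were called (0.517% of all 387 genes) and 4 passed an unadjusted p under 0.05 (11.9% of all genes). On that measure the median log2 ratio was -0.21 over the 54 genes that have it, so its direction turned, against 0.15 over all genes.

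Rprd2, which binds the C-terminal domain of RNA polymerase II, was the gene called higher. T>C reads made up 36.4, 28.5 and 37.2% of its distal row and 14.4, 6.45 and 12.5% of its proximal row, with 151 to 239 and 93 to 112 reads. The rows did not overlap in any library, with a log2 ratio of 1.64 (SE 0.39, adjusted p = 0.0304), and both covered about 19 T positions per read. Per covered T the log2 ratio was 1.68 (SE 0.46, adjusted p = 0.0886). Without replicate 3 the adjusted p was 0.149. In Zmynd8 the distal row had 33.8, 35.4 and 33.9% and the proximal 21.7, 30.0 and 28.7%, higher in the distal row in 3 of 3 libraries (adjusted p = 0.498), and 3.18% of the distal reads had a T>C conversion over the unlabelled Quant-seq libraries. In Rbbp6 the distal row had 14.0, 9.83 and 13.9% and the proximal 14.0, 27.8 and 50.0%, on 36 to 43 proximal reads (adjusted p = 0.112).

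**Figure D5:**
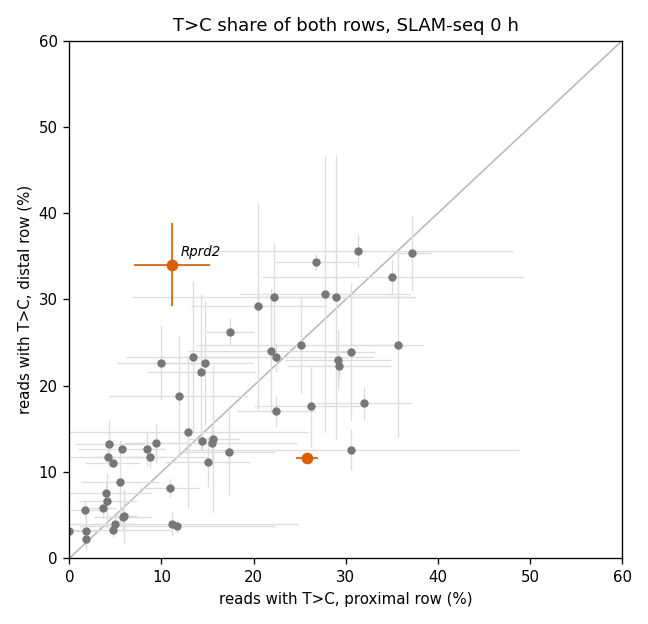
Share of reads with a T>C conversion (percent) in the distal against the proximal row for the 55 genes with at least 30 reads per row in each of the 3 DPY30mAID SLAM-seq libraries at 0 h, as means with SD bars and a line of equal shares. Orange points are the 2 genes called, and the one labelled is Rprd2, at 34.0% distal and 11.1% proximal.

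The levels of the cleavage and polyadenylation machinery were taken as whole-gene counts, for a list of 31 factors and regulators of which 30 were tested and Cpsf1 was not analysed here. At day 4 of RA in DMSO, 18 of the 30 were called, 3 higher and 15 lower, where 28.7% of all 11415 genes were called higher and 25.6% lower. The median log2 fold change of the list was -0.35, against 0.06 over all genes. Of the specificity complex, Wdr33, which binds the AAUAAA signal, went from 80.2 and 80.4 normalised CPM to 41.2 and 44.6 (log2 fold change -0.90, SE 0.17, adjusted p = 2.75e-05). Cpsf2, Cpsf3 and Cpsf4 fell by 0.64, 0.52 and 0.62, and Fip1l1 was not called (-0.25, SE 0.16, adjusted p = 0.190). Of the CFIm complex, which favours distal sites, Nudt21 fell by 0.53 (SE 0.11, adjusted p = 0.000106) and Cpsf6 by 0.62, while Cpsf7 was not called (log2 fold change -0.15, SE 0.16, adjusted p = 0.444). The poly(A) polymerase Papola fell by 0.59, the poly(A)-binding proteins Pabpn1 and Pabpc1 by 0.59 and 0.69 and Rbbp6 by 0.46 on the log2 scale, with 96.2% of the reads of the distal row of Pabpc1 multimapped. The 3 that rose were Celf2, an RNA-binding regulator of splicing, from 6.81 and 5.10 to 117 and 132 normalised CPM (log2 fold change 4.38, SE 0.23), Nova1, a neuronal splicing factor (2.19, SE 0.47), and Cstf2t, a paralogue of the U-rich element binder Cstf2 (0.53, SE 0.20). Cstf2 itself had 0.03 (SE 0.13, adjusted p = 0.851) and Pcf11, a termination factor, 0.27 (SE 0.27, adjusted p = 0.412).

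Between auxin and DMSO at day 4, 2 of the 30 factors were called, both lower, where 8.09% of all genes were called higher and 10.6% lower. They were the phosphatase subunits Ppp1ca (log2 fold change -0.31, SE 0.11, adjusted p = 0.0371) and Ppp1cb (-0.48, SE 0.12, adjusted p = 0.00285). The median of the list was 0.02 and that of all genes 0.00. Leaving out a library left 1 factor called, and without auxin day 4 replicate 2 it left 0.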

How the data were processed

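Quant-seq and SLAM-seq libraries of mES cells were used as deposited. The authors' count tables give, per 3′ UTR row, raw read counts, counts of reads with a T>C conversion, multimapped reads and covered T positions, per the file headers from slamdunk 0.3.4 on GENCODE vM14 3′ UTRs; the labels name HISAT2 2.2.1 and featureCounts on mm10. Libraries were grouped by their labels. The 256 genes and all gene lists were chosen with earlier results of these data known.

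From the counts, distal against other reads were fitted with library blocks and a distal-by-group term (edgeR 4.0.16 in R 4.3.3, glmQLFit and glmQLFTest, robust), over 1097 genes with Benjamini-Hochberg adjustment. T>C reads were fitted with the row's reads as offset. Whole-gene counts used TMM. Genes were named by rule: among genes called, with at least 20 reads per library, at most 10% multimapped reads and no overlap of libraries, the 6 largest rises and 6 largest falls at RA day 4, the 3 of each under auxin at day 4 and the 4 of each in T>C share (all where fewer passed), plus the 3 genes with the most reads and at most 10% multimapped ones and the members of the list of alternative 3′ ends. On simulated data for RA day 4, 90.1% of changes of 2 on the log2 scale and 26.3% of changes of 1 were recovered. The changes were placed only in genes with many reads and a distal share between 10 and 90%, and the spread was assumed. These rates therefore do not describe all 1097 genes at their own spread. Alternatives were DESeq2 1.42.0, diffSpliceDGE, other filters, a replicate block and leaving out libraries. Kdm5a/b knockout libraries were not used. Wilson intervals cover counting error only, and those of odds ratios also the spread between libraries. Some genes called and 1 sequence are not reported here.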

Additional observations from a re-analysis of the deposited data

Results flagged for a closer look

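A T>C conversion in unlabelled RNA does not come from 4-thiouridine. In the Quant-seq libraries, which were not labelled, the median row of the 256 genes had T>C conversions in 0.131% of its reads, and 6 of 512 rows had over 5%, a limit set after the data were seen. These were the distal rows of Fbln1 (10.5%), Mpp3 (6.86%), Fam220a (6.61%), Jak3 (5.83%) and Ttc17 (5.69%) and the proximal row of Mpp3 (6%). The cause was not tested.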

How the results depend on the processing

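Counts of genes called in RA moved with the setting. At 8 h, 2 calls became 0 without genes of over 10% multimapped reads, 11 with only the 2 groups in the fit and 4 with diffSpliceDGE, and 2 to 4 when 1 library was left out. At day 1, 14 became 6 without multimapped genes and 4 to 9 without a library. At day 2, 12 became 7 with DESeq2, 7 with 8 h as the reference, and 5 to 8 without a library. At day 4, 23 became 14 with at least 10 reads per side, 13 without multimapped genes, 11 with DESeq2 and 6 to 10 without a library. With 8 h as the reference, the log2 odds ratios of Pnkd at day 1 (0.0519) and Hook2 at day 2 (0.0499) were near 0, both having been called lower by 8 h, so the change of sign is not a change of direction. The median change at day 4 was 0.329 to 1.34 points without a library.

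For auxin at day 4, 1 call became 0 without multimapped genes, 9 with only the 2 groups and 0 to 1 without a library, and the median change was -1.05 to -0.368. In DPY30mAID SLAM-seq, 2 became 0 with at least 10 reads in every library, per side or with only the 2 groups, 1 without multimapped genes, 7 with DESeq2, 8 with diffSpliceDGE. Without a library it became 0 to 2, and those 2 were neither Cdc23 nor D5Ertd579e. In RBBP5FKBP, 0 became 2 with DESeq2 and 1 with diffSpliceDGE. The 2 T>C calls became 5 with at least 100 reads, 0 per covered T, 12 with no replicate block and 0 to 6 without a library. Factor calls were 15 to 18 in RA without a library, and under auxin 1 with DESeq2 and 0 to 1 without a library. The cause was not tested.

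Same-numbered libraries share only a number, with a mean correlation of deviations of -0.00401 in Quant-seq. With the replicate block, 2, 15, 13 and 21 genes were called at 8 h and days 1, 2 and 4 of RA, 1 for auxin at day 4 and 0 in DPY30mAID. The median 95% interval of a gene was 1.83 wide on the log2 scale at day 4 of RA. The parts of read number and of the spread between libraries in that width were not tested.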
